A study of Mus musculus with 12 samples.

Results

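The serine/arginine-rich (SR) protein genes, the heterogeneous nuclear ribonucleoprotein (hnRNP) genes and the polypyrimidine tract binding (PTB) genes of the mouse were followed as naive embryonic stem cells (ESCs) became epiblast-like cells (EpiLCs). They were chosen by name: all protein-coding genes whose GENCODE symbol starts with Srsf or Hnrnp, plus Tra2a, Tra2b, Ptbp1, Ptbp2 and Ptbp3. This gave 36 genes of the 51467 genes in the count table, of which 21793 are protein-coding. Processed pseudogenes with matching names (2 of them) were left out. ESCs were kept naive in serum with LIF and the inhibitors PD0325901 and CHIR99021 (2i). EpiLCs were the same cells collected about 56 h after LIF and 2i were withdrawn. Per the study's methods, the cells used for differentiation were a reporter line made from the V6.5 mouse ESC line, so all libraries come from 1 cell line. Both cell types were fed 4-thiouridine (4sU) at 500 µM for 30 min, which marks RNA made during the pulse. The marked RNA was captured as the nascent fraction (4sU libraries), and rRNA-depleted unselected RNA gave the total libraries. The design holds 4 groups (ESC 4sU, ESC total, EpiLC 4sU and EpiLC total) with 3 libraries in each group. The study calls its replicates biological. The labels do not say whether the libraries of a group came from separate cultures, and p-values measure the spread between these libraries.

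SR proteins bind exons through RNA recognition motifs and, through their serine/arginine domains, help recruit the spliceosome to nearby splice sites. Many hnRNPs act against them by binding exons or introns and blocking splice site choice, and PTB proteins are hnRNPs that bind pyrimidine-rich tracts and mostly promote exon skipping. These proteins commonly control their own level. An excess of the protein favours an mRNA version with a premature stop codon, either by including a "poison" exon or by skipping a coding exon, and that version is removed by nonsense-mediated decay (NMD). PTBP1 is known to promote skipping of an exon of Ptbp2 in this way in non-neuronal cells. Pluripotent cells are known to express many SR and hnRNP genes at high levels.

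The exons behind this control are shown here because they explain what a change in the mRNA level of these genes can and cannot say. In Ptbp2 the exon skipped in the NMD transcript Ptbp2-208 is exon 10 of 14 of the main coding transcript (GENCODE M21; GRCm38, chr3:119724612-119724645, minus strand, coding). It is 34 bases long, which is 1 base more than a multiple of 3, so skipping shifts the reading frame. In the lines below the first sequence holds the exon in capitals between its neighbours, and the second is the skipped form with the new stop codon in capitals.
Ptbp2 exon included: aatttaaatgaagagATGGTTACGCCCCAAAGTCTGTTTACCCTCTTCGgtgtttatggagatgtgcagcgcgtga
Ptbp2 exon skipped: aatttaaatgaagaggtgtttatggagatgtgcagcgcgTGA
The stop lies 24 bases after the new junction, and the annotated reading frame falls from 532 to 356 residues. The exon makes up 0.692% of the bases counted for Ptbp2, so the gene counts do not separate the included from the skipped form, and use of the exon was not measured.

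At least 1 NMD transcript is annotated for 24 of the 36 genes (66.7%), against 3513 of the 12312 protein-coding genes that passed the expression filter (28.5%). The number of transcripts annotated per gene, such as 34 for Hnrnpk and 1 for Hnrnpa0, was not compared between these sets. In 12 of the 36 genes NMD transcripts hold internal exons that overlap no exon of the gene's protein-coding transcripts, 19 exons in all. Transcripts of other types, such as those with retained introns, were not compared. None of the 19 overlapped the bases counted in the deposited table (0 bases), which used the basic set of transcripts, so a read inside a poison exon was not counted for its gene. In 9 genes such an exon itself holds the premature stop. Their sequences are given from the start of the exon to the stop codon, which is in capitals, to show how early each frame closes.
Srsf3 (chr17:29039454-29039909, plus strand): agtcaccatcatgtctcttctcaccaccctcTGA
Srsf4 (chr4:131884276-131884482, plus strand): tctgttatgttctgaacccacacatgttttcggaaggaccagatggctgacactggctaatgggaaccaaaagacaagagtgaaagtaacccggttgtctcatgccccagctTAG
Srsf7 (chr17:80204622-80205081, minus strand): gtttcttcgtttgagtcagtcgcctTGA
Srsf9 (chr5:115328347-115328704, plus strand): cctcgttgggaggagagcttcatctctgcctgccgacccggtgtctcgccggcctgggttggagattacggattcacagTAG
Srsf11 (chr3:158024123-158024231, minus strand): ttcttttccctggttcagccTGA
Tra2a (chr6:49252803-49253108, minus strand): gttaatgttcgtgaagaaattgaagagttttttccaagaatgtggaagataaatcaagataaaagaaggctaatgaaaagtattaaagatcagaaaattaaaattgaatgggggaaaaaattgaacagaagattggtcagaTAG
Tra2b (chr16:22258986-22259261, minus strand): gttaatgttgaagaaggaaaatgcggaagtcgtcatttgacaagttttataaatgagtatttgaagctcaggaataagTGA
Hnrnpl (chr7:28817335-28817404, plus strand): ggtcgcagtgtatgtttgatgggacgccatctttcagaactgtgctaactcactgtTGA
Hnrnpll (chr17:80044940-80045022, minus strand): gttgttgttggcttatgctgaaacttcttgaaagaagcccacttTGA
The stop ends between 23 bases (Srsf11) and 144 bases (Tra2a) after the exon starts. The exons of the paralogs Tra2a and Tra2b share their first 9 bases (gttaatgtt). Tra2 proteins are known to bind GAA-rich exons. The letters GAA, read on the sense strand, occur 12 times in the 144 bases of Tra2a and 6 times in the 81 bases of Tra2b. Of all windows of the same length in the principal transcripts of the 36 genes, 0.0958% and 1.57% held as many. It occurs 3 times in the 47 bases of Hnrnpll (6.38 per 100 bases, beside 8.33 in Tra2a and 7.41 in Tra2b), which 8.28% of such windows matched, 4 times in the 115 bases of Srsf4 and once in Hnrnpl. GAA was not found in the printed stretches of Srsf3, Srsf7, Srsf9 and Srsf11. These matches describe the letters only.

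Library totals ran from 3097693 to 5385644 reads for 4sU and from 9300845 to 21975684 for total RNA, which gives the 4sU values the coarser counts. No replicate pair agreed within sampling noise (chi-square per degree of freedom 1.41 to 30.4). ESC replicate 3 stood apart in both assays. On the third principal component, which held 2.26% of the variance, its loadings were 0.652 (4sU) and 0.340 (total), against -0.388 to -0.129 for the remaining ESC libraries and -0.177 to 0.188 for those of EpiLCs. All 10 naive markers fell and 6 of 7 primed markers rose in EpiLC total RNA. Among markers of other cells, the summed fibroblast list overlapped between the cell types (58.8 to 87.3 CPM in ESC total, 84.0 to 85.6 CPM in EpiLC total), but this was mostly Col5a1, and 4 of its 7 tested genes rose and 1 fell. Dcn, Acta2 and Col1a2 went from at most 0.197 CPM in any ESC total library to 3.68 to 7.85 CPM in EpiLC total libraries. The summed primitive endoderm list was lower in EpiLCs (132 to 175 against 29.9 to 32.9 CPM), mostly through Lama1, while 2 of its 5 tested genes fell and 2 rose, Dab2 (0.116 to 1.47 against 10.2 to 12.3 CPM) and Gata4 (1.62 to 4.92 CPM in ESC total, 4.87 to 5.80 CPM in EpiLC total). The part of such cells in the results was not tested. The neural progenitor list is given with Ptbp2. In bulk RNA, fewer cells of a type and less RNA per cell cannot be told apart.

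The 36 genes took up 1.13% ± 0.0627 (SD, n = 3) of the reads of the ESC total libraries and 1.31% ± 0.00468 of EpiLC total libraries, and the nascent share was 1.64% ± 0.0473 in ESCs and 1.86% ± 0.0412 in EpiLCs. The ranges did not overlap in either assay, with EpiLC above ESC. These are shares of raw reads, not scaled by TMM, the trimmed mean of M values. The TMM factors were 0.894 to 0.923 for ESC total and 0.957 to 0.967 for EpiLC total libraries. A summed share is also not a rise of each gene: 13 rose and 4 fell in total RNA, as given below. All 36 passed the filter of 3 CPM (read counts divided by the effective library size) in at least 3 libraries. Srsf12, a relative of Srsf10 known as a splicing repressor, was far below the others, with 7 to 69 reads per library. Levels between genes were compared as CPM per kb of counted exon, with libraries scaled by TMM. Hnrnpa2b1, which binds exons and also sorts RNAs, was the highest in total RNA, at 328 ± 21.8 CPM per kb in ESCs and 453 ± 28.3 in EpiLCs (SD, n = 3). Hnrnpab, at 320 ± 23.4 and 401 ± 7.83, came next, then Hnrnpu, a nuclear matrix and chromatin associated RNA binder, at 243 ± 21.1 and 253 ± 1.55. In ESCs Hnrnpa2b1 and Hnrnpab lay within 1 SD of each other, so their order there is not resolved. At the low end stood Srsf12 (1.18 ± 0.157 and 1.37 ± 0.398), Hnrnpr (4.64 ± 0.362 and 5.89 ± 0.161) and Hnrnpa3 (6.34 ± 1.58 and 7.93 ± 0.853). The length counted for Hnrnpr, 21483 bases, includes 1 very long transcript, and that of Hnrnpa3 is 5222 bases against 1654 in its principal transcript, which lowers a value per kb. Only uniquely aligned reads were counted, and 90.5% of 50-base windows of the Hnrnpa3 principal transcript are shared with other genes, as given below. The part of lost reads in its low level was not tested.

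Between ESCs and EpiLCs these genes mostly moved by less than 2-fold, with Ptbp2 as the exception. A gene is said to have risen or fallen at a Benjamini-Hochberg adjusted p under 0.05 in limma-voom over all 14731 genes tested, and is called changed where the absolute log2 fold change is also over 1. In total RNA (mRNA change) 13 of 36 rose (36.1%) and 4 fell (11.1%), beside 31.4% and 32.1% of all genes tested. With the fold threshold 1 was called higher and 0 lower, beside 16.3% and 11.2% of all genes. The median log2 fold change of the 36 was 0.14, against 0.02 over all genes, and the values ran from -0.54 to 2.10. In nascent RNA 13 rose and 4 fell, beside 23.7% and 28.8% of all genes, and 1 was called higher and 0 lower, beside 11.9% and 13.5%. The nascent median was 0.07, against -0.09 over all genes. When 1 library was left out, the nascent falls numbered as few as 1, in the fit lacking EpiLC 4sU replicate 1, and as many as 5. Of the 36 genes, 9 passed in both assays, each in the same direction, 8 in total RNA alone, 8 in nascent RNA alone and 11 in neither. ESC replicate 3 bore on the falls in total RNA, which were 7 without its total library and 9 without both its libraries.

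**Figure D1:**
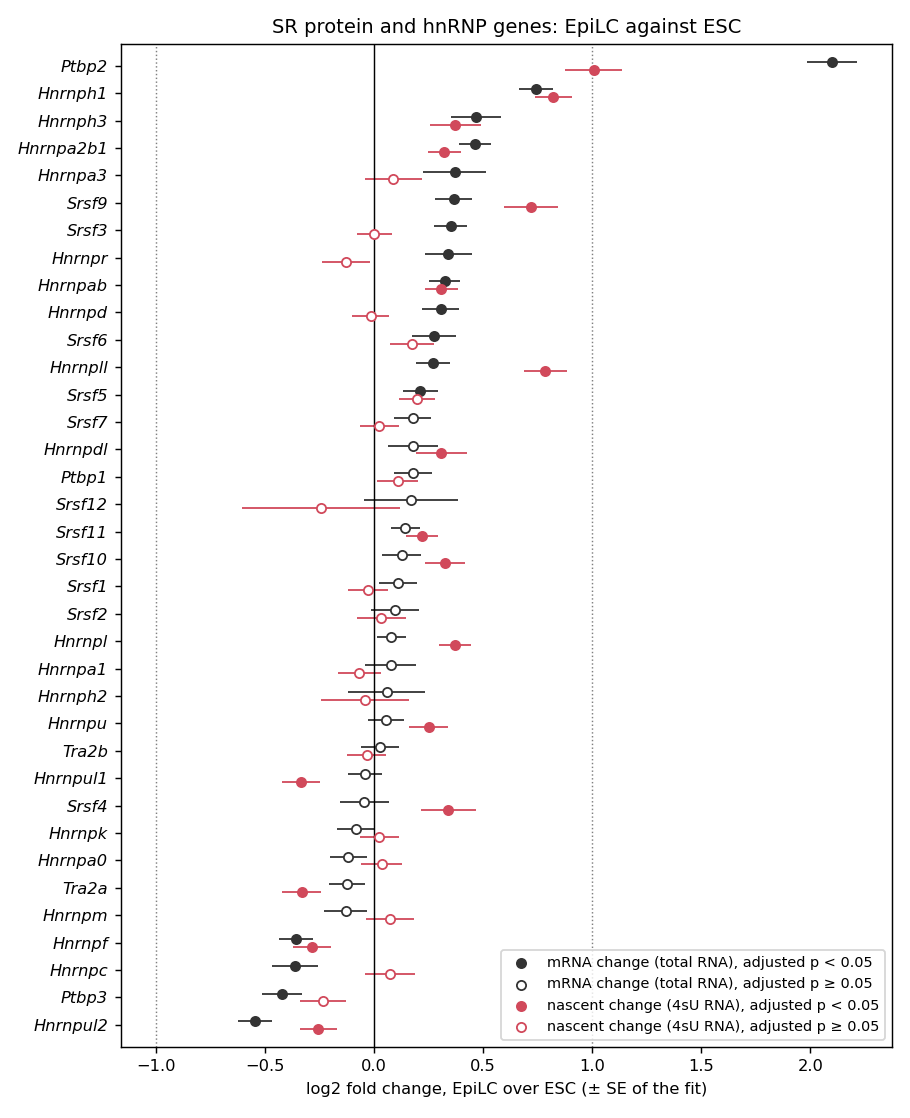
Log2 fold change of EpiLC over ESC (x axis) for each of the 36 genes (rows, sorted by mRNA change), from total RNA (black) and 4sU RNA (red). Bars are ± 1 SE of the fit, filled points have adjusted p under 0.05, and dotted lines mark a log2 change of 1; Ptbp2 at 2.10 is the only mRNA change past it.

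Across the 36 genes the mRNA and nascent changes, which share no library, had Pearson's r of 0.70 and Spearman's rho of 0.56 (0.62 and 0.53 without Ptbp2). The sign was the same in 24 of 36. Genes are not independent replicates, so this is a description. In total RNA the 3 EpiLC libraries lay above the 3 ESC libraries in 15 genes and below them in 3, and they overlapped in the others. The share of all genes tested that separated in this way was not counted, so these counts only describe the 36 genes.

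The PTB family held the largest change. PTBP1 is the form of dividing cells, PTBP2 the form that replaces it in developing neurons, and PTBP3 a paralog first described in blood cells. Ptbp2 (ENSMUSG00000028134.11, chr3:119718742-119783804, minus strand) stood at 45.4, 44.2 and 39.0 CPM in the 3 ESC total libraries and at 187, 174 and 193 CPM in the EpiLC total libraries. The EpiLC libraries were all far above the ESC libraries. This is a log2 fold change of 2.10 ± 0.12 (SE), or 4.29-fold (adjusted p = 1.44e-09), and 1048 of the 14731 genes rose by more. Nascent Ptbp2 was at 85.9, 66.0 and 54.8 CPM in ESCs and at 125, 142 and 147 CPM in EpiLCs, again without overlap, a change of 1.01 ± 0.13 (adjusted p = 2.07e-05). Its 4sU values in ESCs were the most spread of the 4 groups. Without ESC 4sU replicate 3 the nascent change was 0.94, without EpiLC 4sU replicate 2 it was 0.99 and without both ESC replicate 3 libraries 0.85, each still at adjusted p under 0.05 but short of the fold threshold.

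Ptbp1 (ENSMUSG00000006498.16, chr10:79854427-79864771, plus strand) stood at 435, 408 and 393 CPM in ESC total RNA and at 469, 450 and 478 CPM in EpiLC total RNA. The libraries did not overlap, yet the change of 0.18 ± 0.09 did not pass (adjusted p = 0.0903), and the nascent change was 0.11 ± 0.09 (adjusted p = 0.342). Ptbp3 (ENSMUSG00000028382.15, chr4:59471868-59549364, minus strand) fell, from 257, 254 and 312 CPM to 214, 194 and 203 CPM, a change of -0.42 ± 0.09 (adjusted p = 0.000872). Its nascent change of -0.24 ± 0.11 did not pass (adjusted p = 0.0743). Per kb, Ptbp1 was the highest of the 3 in all 4 groups. Ptbp2 over Ptbp1, each per kb, went from 0.0730 ± 0.00324 in ESC total RNA to 0.278 ± 0.00591 in EpiLC total RNA (SD, n = 3), and from 0.0952 ± 0.0330 to 0.175 ± 0.0307 in 4sU RNA. In ESC total RNA Ptbp3 (37.9 ± 4.45 CPM per kb) was above Ptbp2 (8.73 ± 0.689), and in EpiLC total RNA it was below (28.1 ± 1.36 against 37.6 ± 1.98). In CPM, without division by length, Ptbp3 was above Ptbp2 in EpiLC total RNA too (203 ± 9.86 against 185 ± 9.70). The counted length is 7247 bases for Ptbp3 and 4913 for Ptbp2, against 3409 and 3364 in their principal transcripts. The order of Ptbp2 and Ptbp3 in EpiLCs therefore depends on the length used.

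**Figure D2:**
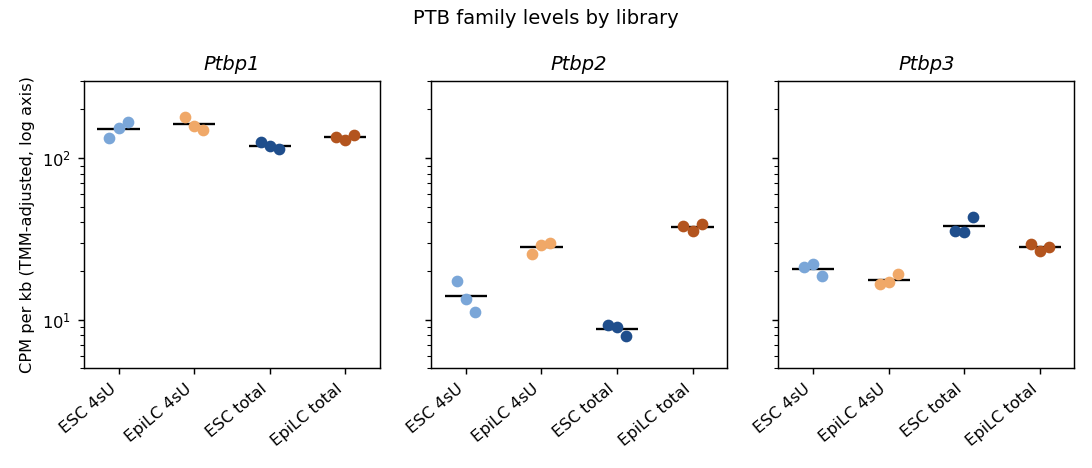
Level of Ptbp1, Ptbp2 and Ptbp3 in each library, as TMM-adjusted CPM per kb on a log axis, by group (x axis). Points are libraries and bars the mean of 3; Ptbp2 rises from 8.73 to 37.6 CPM per kb in total RNA while Ptbp1 stays the highest.

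Because PTBP2 is known as a neural protein, the neural progenitor list was read beside it. Its summed level was 107 to 152 CPM in ESC total libraries and 476 to 520 CPM in EpiLC total libraries, and in 4sU libraries 59.5 to 111 and 402 to 488 CPM. Of its 8 genes 5 passed the filter and 4 rose (Nes, Pax6, Map2 and Sox1). Most of the sum was Nes (365 to 429 CPM in EpiLC total). Pax6 reached 9.71 to 10.5 CPM, while the neuronal genes Neurog2 and Dcx were at 0.112 to 0.379 and 0.781 to 1.29 CPM in EpiLC total RNA, Dcx from 0 reads in ESC total RNA. Tubb3, a neuronal tubulin and the other gene tested, stood at 55.2 to 59.2 CPM in ESC and 40.2 to 54.4 CPM in EpiLC total RNA (-0.27, adjusted p = 0.0630) and fell in nascent RNA (-0.88, adjusted p = 0.0234). The part of such cells in the Ptbp2 change was not tested.

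Of the 8 classical SR proteins, 4 rose in total RNA and none fell (Srsf3, Srsf5, Srsf6 and Srsf9), beside 31.4% and 32.1% of all genes. In nascent RNA 2 of 8 rose (Srsf4 and Srsf9), a share of 25.0% that is near the 23.7% of all genes. All changes of this group were under 2-fold. Srsf9, an SR protein with a short arginine/serine domain, rose from 57.8, 58.5 and 64.1 CPM to 81.2, 76.8 and 73.6 CPM in total RNA, a change of 0.36 ± 0.09 (adjusted p = 0.00181). Its nascent level went from 30.3, 27.0 and 29.0 CPM to 54.0, 47.0 and 40.6 CPM, a change of 0.72 ± 0.13 (adjusted p = 0.000254). The groups overlapped in neither assay. Srsf3, the smallest SR protein, which also acts in mRNA export, showed the other pattern. It stood at 265, 280 and 233 CPM in ESC and 321, 338 and 333 CPM in EpiLC total RNA (0.35 ± 0.08, adjusted p = 0.000888), while its nascent level was alike in the cell types, 352 to 392 CPM against 358 to 382 CPM (0.00 ± 0.08, adjusted p = 0.989). Windows of its transcript are shared with other genes, as given below.

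Srsf1, the founding member and a regulator of splicing, export and translation, stood at 1257, 1175 and 958 CPM in ESC and at 1157, 1244 and 1247 CPM in EpiLC total RNA, with overlapping libraries (0.11 ± 0.09, adjusted p = 0.275). Srsf2, which binds both purine- and pyrimidine-rich exon motifs, was at 0.10 ± 0.11 (adjusted p = 0.458), and Srsf7 at 0.18 ± 0.09 (adjusted p = 0.0840). Srsf5 (0.21 ± 0.08, adjusted p = 0.0305) and Srsf6 (0.28 ± 0.10, adjusted p = 0.0250), which bind purine-rich exon enhancers, rose by little in total RNA, and Srsf4, their longer relative, rose in nascent RNA alone (0.34 ± 0.13, adjusted p = 0.0346). Of the other Srsf genes, Srsf10, a splicing repressor once dephosphorylated, rose in nascent RNA (0.33 ± 0.09, adjusted p = 0.00749), as did Srsf11 (0.22 ± 0.07, adjusted p = 0.0203). Neither passed in total RNA. The low counts of Srsf12 left its changes with wide errors (0.17 ± 0.22 in total and -0.24 ± 0.36 in nascent RNA). Tra2a, a sequence-specific splicing activator, fell in nascent RNA, from 266, 235 and 243 CPM to 193, 199 and 198 CPM (-0.33 ± 0.09, adjusted p = 0.00675), with no overlap. It no longer passed without EpiLC 4sU replicate 1 (-0.25, adjusted p = 0.0991) or 3 (-0.27, adjusted p = 0.0740), or with no expression filter (-0.29, adjusted p = 0.0901). Its total RNA did not pass (-0.12 ± 0.08, adjusted p = 0.208), and Tra2b passed in neither assay.

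Of the 20 hnRNP genes, 8 rose and 3 fell in total RNA, and 8 rose and 3 fell in nascent RNA (beside 31.4% and 32.1% of all genes, and 23.7% and 28.8%). The F/H type, which binds G-rich runs, moved in both directions. Hnrnph1 (ENSMUSG00000007850.16, chr11:50376990-50386528, plus strand) rose from 353, 363 and 309 CPM to 560, 596 and 560 CPM in total RNA (0.74 ± 0.08, adjusted p = 1.40e-06). In nascent RNA it rose from 449, 528 and 489 CPM to 919, 851 and 820 CPM (0.82 ± 0.08, adjusted p = 1.92e-06). No library overlapped between the cell types in either assay. Hnrnph3 also rose in both (0.47 ± 0.11, adjusted p = 0.00242, and 0.37 ± 0.12, adjusted p = 0.0144). Without ESC 4sU replicate 1 its nascent change was 0.34 (adjusted p = 0.0512) and without EpiLC 4sU replicate 2 it was 0.32 (adjusted p = 0.0664). Hnrnpf, of the same type, fell from 131, 128 and 119 CPM to 94.2, 97.4 and 104 CPM (-0.36 ± 0.08, adjusted p = 0.000835), with a nascent change of -0.28 ± 0.09 (adjusted p = 0.0135) that no longer passed without ESC 4sU replicate 2 (-0.17), ESC total replicate 1 (-0.22) or EpiLC 4sU replicate 1 (-0.21) or 3 (-0.22), or with no expression filter (-0.25). Hnrnph2 was at 0.06 ± 0.18 and -0.04 ± 0.20.

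The A/B and D type, which holds the most abundant hnRNPs, rose in 4 of 7 genes in total RNA (57.1%) and fell in none. Over all genes 31.4% rose and 32.1% fell. Hnrnpa2b1 rose from 827, 831 and 737 CPM to 1173, 1098 and 1036 CPM (0.46 ± 0.07, adjusted p = 6.86e-05), and from 1525, 1623 and 1403 CPM to 1937, 1910 and 1838 CPM in nascent RNA (0.32 ± 0.08, adjusted p = 0.00260). Hnrnpab rose alike in both (0.32 ± 0.07 and 0.31 ± 0.08), and Hnrnpdl, a relative of Hnrnpd, rose in nascent RNA alone (0.31 ± 0.12, adjusted p = 0.0379). Hnrnpd, which binds AU-rich elements and is known for promoting mRNA decay, rose in total RNA (0.31 ± 0.09, adjusted p = 0.00626) and not in nascent RNA (-0.02 ± 0.09). Hnrnpa3 rose by 0.37 ± 0.14 (adjusted p = 0.0363), with overlapping libraries (27.9, 28.8 and 42.7 CPM against 46.5, 39.5 and 38.3 CPM). It no longer passed without ESC total replicate 1 (0.24), ESC total replicate 2 (0.28), EpiLC total replicate 1 (0.29) or EpiLC total replicate 2 (0.41), and with no expression filter (0.31), in edgeR's quasi-likelihood test (adjusted p = 0.0593) and DESeq2 (adjusted p = 0.0706). Hnrnpa1, the classical antagonist of SRSF1, was at 30.4, 29.8 and 26.8 CPM in ESC and 36.1, 29.7 and 27.3 CPM in EpiLC total RNA (0.08 ± 0.12, adjusted p = 0.586). Windows of the Hnrnpa1 and Hnrnpa3 transcripts are shared with other genes, as given below, and the part of lost reads in these levels was not tested. Hnrnpa0 passed in neither assay (-0.12 ± 0.08 and 0.04 ± 0.09).

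The falls in total RNA among hnRNP genes were those of Hnrnpul2, Hnrnpc and Hnrnpf. Hnrnpul2, a U type protein linked to the DNA damage response, went from 343, 345 and 365 CPM to 263, 232 and 228 CPM (-0.54 ± 0.08, adjusted p = 2.49e-05), with all EpiLC libraries below. Its nascent change was -0.25 ± 0.09 (adjusted p = 0.0216), which no longer passed with scaling by median of ratios (-0.20) or within each assay (-0.19), with no expression filter (-0.21), and in 5 of the 12 fits that left out 1 library: without ESC 4sU replicate 3 (-0.13), ESC total replicate 1 (-0.19), EpiLC 4sU replicate 1 (-0.22), 2 (-0.21) or 3 (-0.19). Hnrnpul1 fell in nascent RNA alone (-0.33 ± 0.09, adjusted p = 0.00512). Hnrnpc, which coats uridine tracts of introns, went from 501, 503 and 364 CPM to 342, 351 and 366 CPM (-0.36 ± 0.10, adjusted p = 0.00712). These groups overlapped through ESC replicate 3, without whose libraries the change was -0.52 (adjusted p = 3.76e-08). Hnrnpk, which binds C-rich RNA, was at -0.08 ± 0.09 in total RNA, and Hnrnpm at -0.13 ± 0.10. Hnrnpr, known for its part in axonal mRNA transport, rose in total RNA alone (0.34 ± 0.11, adjusted p = 0.0138), and Hnrnpu in nascent RNA alone (0.25 ± 0.09, adjusted p = 0.0279).

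Both L type genes rose in nascent RNA. Hnrnpll, known for directing the splicing of Ptprc in lymphocytes, went from 60.7, 61.7 and 51.2 CPM to 95.7, 97.7 and 109 CPM (0.79 ± 0.10, adjusted p = 1.28e-05), while total RNA went from 125, 124 and 113 CPM to 148, 141 and 149 CPM (0.27 ± 0.08, adjusted p = 0.00710). Neither assay had overlapping libraries. Hnrnpl, a regulator that binds CA repeats, rose by 0.37 ± 0.07 (adjusted p = 0.000636) in nascent RNA and was at 0.08 ± 0.07 (adjusted p = 0.317) in total RNA.

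**Figure D3:**
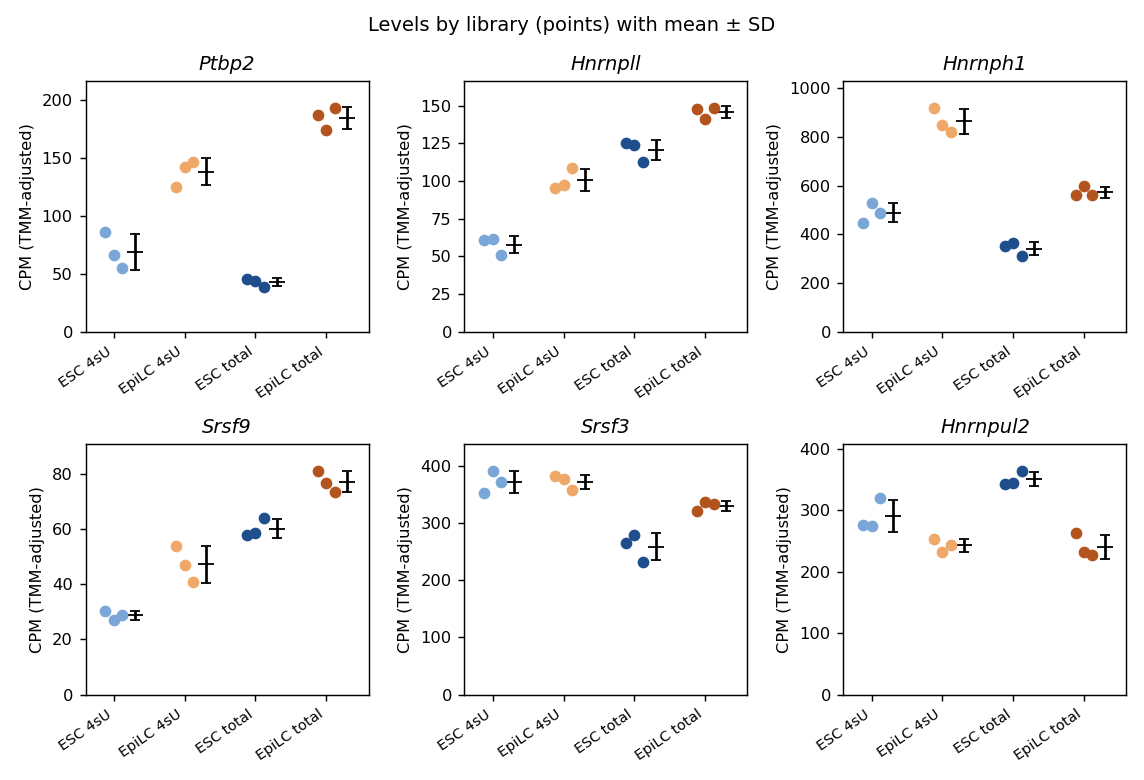
TMM-adjusted CPM of 6 of the genes in each library (points) by group (x axis), with the mean ± SD of 3 libraries beside them. Ptbp2 gains more in total than in 4sU RNA and Hnrnpll gains more in 4sU RNA; Srsf3 differs between the cell types in total RNA with overlapping 4sU levels, and Hnrnpul2 is lower in EpiLCs.

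The comparison of the mRNA change with the nascent change gives the change in mRNA stability, tested as the interaction of cell type and assay. Of the 36 genes, 1 rose and 1 fell in stability, beside 2.72% and 1.88% of all genes, and with the fold threshold 1 was called higher and 0 lower, beside 1.24% and 0.305%. The median of the 36 was 0.04, against 0.11 over all genes. More passed without ESC total replicate 3 (4 rose, 3 fell), without both ESC replicate 3 libraries (6 rose, 6 fell) and with each total library paired to the 4sU library of its number (3 rose, 3 fell). Per the study's methods, labelled samples were split after extraction, so each total library has a 4sU library of the same sample. The chosen fit did not use this pairing, which the labels give only by number. Over all genes the paired fit gave 1245 rises and 732 falls in stability, against 401 and 277 in the chosen fit. In the chosen fit the rise was that of Ptbp2, whose total RNA gained 1.09 ± 0.18 more than its nascent RNA on the log2 scale (2.13-fold, adjusted p = 0.00565). In ESCs Ptbp2 was lower in total than in 4sU RNA (log2 of total over 4sU -0.67 ± 0.13), and in EpiLCs it was higher (0.42 ± 0.12). It kept an adjusted p under 0.05 in all 12 fits that left out 1 library (0.00144 to 0.0313) and with both ESC replicate 3 libraries left out (1.18, adjusted p = 1.3e-05). Without ESC 4sU replicate 1 the change was 0.94, and without EpiLC 4sU replicate 1 it was also 0.94, each under the fold threshold, as with no expression filter (0.98). Of the bases counted for Ptbp2, 1133 of 4913 (23.1%) lie in introns of its main coding transcript, so unspliced nascent RNA adds to its 4sU count, and the part of this in the change was not tested.

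The fall was that of Hnrnpll, by 0.51 ± 0.13 on the log2 scale (adjusted p = 0.0347), with log2 of total over 4sU of 1.05 ± 0.09 in ESCs and 0.54 ± 0.09 in EpiLCs. It no longer passed in 7 of the 12 fits that left out 1 library, namely those without ESC total replicate 1 (-0.56) and 2 (-0.50), EpiLC 4sU replicate 2 (-0.53) and 3 (-0.54), and EpiLC total replicate 1 (-0.53), 2 (-0.49) and 3 (-0.53), with adjusted p up to 0.0873, and with no expression filter (-0.63, adjusted p = 0.0714). Without both ESC replicate 3 libraries it was -0.47 (adjusted p = 0.00414). Hnrnpr (0.47 ± 0.16, adjusted p = 0.0958), Srsf3 (0.35 ± 0.11, adjusted p = 0.0815), Hnrnpl (-0.29 ± 0.10, adjusted p = 0.0970) and Hnrnpc (-0.43 ± 0.15, adjusted p = 0.113) did not pass. They are named here after their values were seen. In the other 30 genes values ran from -0.38 (Srsf4) to 0.41 (Srsf12).

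Relative mRNA stability within a cell type was read as log2 of total over 4sU. The ratio has no absolute scale, since 4sU and total RNA differ in composition and reads give only relative abundance. The median of the 36 genes was below that of all genes. The share called lower was not above that of all genes, but it was above that of protein-coding genes, the class of all 36. In ESCs 2 were called higher (5.56%) and 9 lower (25.0%) in total than in 4sU RNA. These shares were 23.7% and 26.8% over all genes, and 27.2% and 15.8% over the protein-coding genes tested. The ESC median was -0.32, against 0.03 over all genes tested and 0.30 over the protein-coding genes. In EpiLCs 0 were called higher and 7 lower (19.4%). These shares were 24.2% and 23.3% over all genes, and 27.7% and 12.4% over the protein-coding genes. The EpiLC median was -0.19, against 0.15 over all genes and 0.37 over protein-coding genes. In each cell type 15 of the 36 lay above 0. The order of the genes was alike in the cell types (Pearson's r 0.95, Spearman's rho 0.91 over the 36 genes, given as a description). Ptbp2 was the only gene of the 36 that passed the test on opposite sides of 0, lower in ESCs and higher in EpiLCs.

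The lowest values were those of Hnrnpa1 (-3.14 ± 0.11 in ESCs, -2.99 ± 0.11 in EpiLCs) and Hnrnpa3 (-2.67 ± 0.14 and -2.39 ± 0.14). In CPM, Hnrnpa1 stood at 225, 276 and 273 in ESC 4sU against 30.4, 29.8 and 26.8 in ESC total libraries. Next came Hnrnpd in ESCs (-1.75 ± 0.09) and Srsf10 in EpiLCs (-1.44 ± 0.09). For Srsf10, 35.7% of the counted bases lie in introns of its principal transcript. The highest values were those of Srsf9 (1.06 ± 0.11 and 0.70 ± 0.10), Hnrnpll and Hnrnpm (0.93 ± 0.10 and 0.72 ± 0.11), with Ptbp3 (0.68 ± 0.10) next after Hnrnpm and Srsf9 in EpiLCs. Srsf9 and Hnrnpll were the only genes called higher in ESCs and both lie near the threshold. Without ESC 4sU replicate 2 Srsf9 was at 0.95, and without ESC 4sU replicate 3 or ESC total replicate 1 Hnrnpll was at 0.94 and 1.00. Without both ESC replicate 3 libraries both were at 1.00, just under the threshold, and neither was called.

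The deposited counts hold uniquely aligned reads, and these families have many processed pseudogenes, which resemble spliced mRNA but not introns. The share of 50-base windows of each principal transcript that also occur in annotated transcripts of genes elsewhere was therefore counted, 50 bases being the read length. It was 90.5% for Hnrnpa3 (45 other genes) and 46.4% for Hnrnpa1 (19 other genes), the 2 genes with the lowest relative stability. It was 51.9% for Hnrnpf, 38.3% for Hnrnpk, 31.5% for Srsf3 and 27.8% for Srsf5, and under 20% for the other 30 genes. In 16 of the 36 no window was shared, among them Ptbp2, Ptbp3, Hnrnpll, Hnrnph3, Srsf1 and Srsf9. The 6 genes with at least 20% shared had a median of -0.63 in ESCs and -0.58 in EpiLCs, and 5 of them were below 0 in each, while Hnrnpf was above (0.13 and 0.05). The 30 others had medians of -0.16 and -0.07, and the 16 with none had 0.12 and 0.07. The part of lost reads in the values of Hnrnpa1 and Hnrnpa3 was not tested, and copies that are not annotated were not counted.

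**Figure D4:**
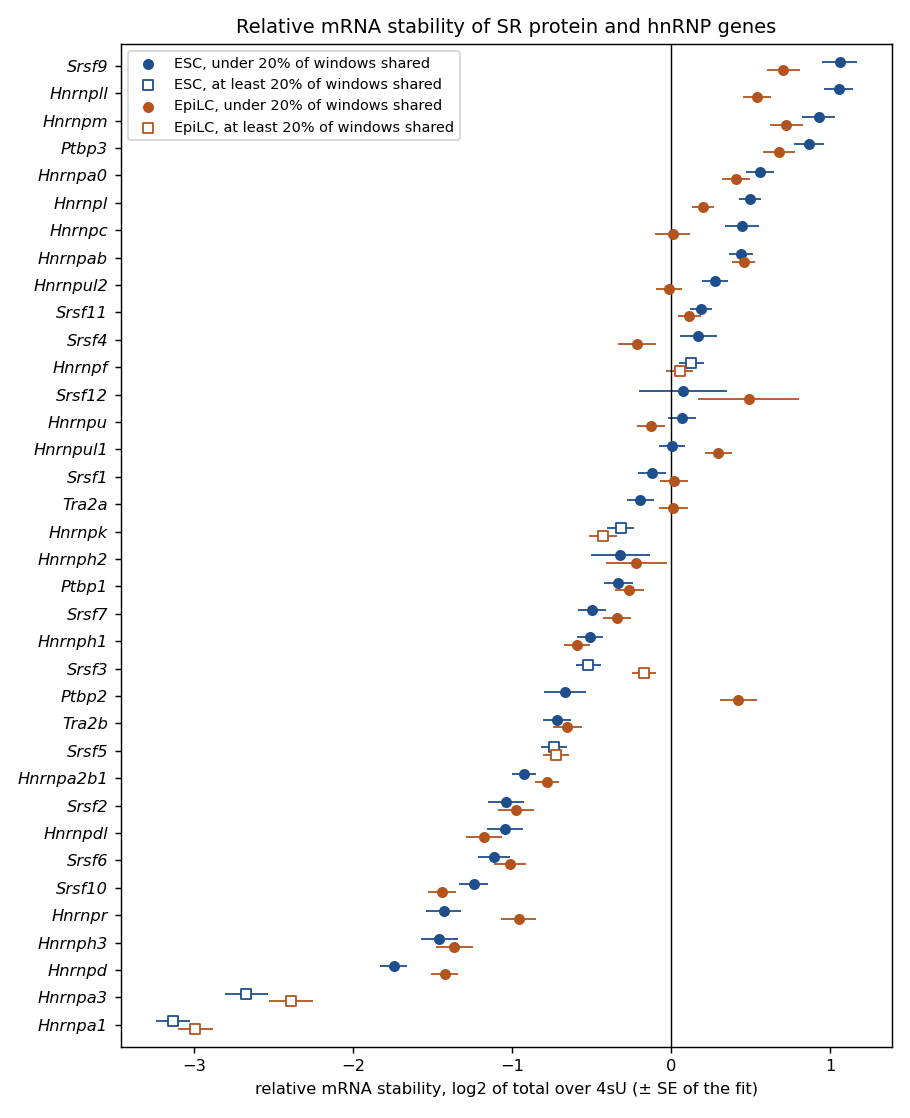
Relative mRNA stability (log2 of total over 4sU, x axis) of the 36 genes in ESCs (blue) and EpiLCs (brown), with bars of ± 1 SE of the fit. Open squares are genes with at least 20% of 50-base windows shared with other genes; Hnrnpa1 and Hnrnpa3 lie lowest in both cell types, and Ptbp2 is the gene with the widest gap between them, from -0.67 to 0.42.

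The 24 genes with an annotated NMD transcript had a median relative stability of -0.51 in ESCs and -0.30 in EpiLCs, and the 12 without one 0.10 and 0.03. The ranges overlapped widely (-3.14 to 1.06 against -2.67 to 0.93 in ESCs). The 9 genes whose poison exon is printed above had medians of 0.17 and 0.01, from -0.72 (Tra2b) to 1.06 (Srsf9) in ESCs. Since those exons were outside the counted bases, these values say nothing of how often they were included.

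Factors that act with these proteins were read from lists of their own in total RNA. Of 8 SR protein kinases tested, which phosphorylate the arginine/serine domains, 3 rose and 1 fell (37.5% and 12.5%, beside 31.4% and 32.1% of all genes), and none was called. Of 16 nonsense-mediated decay factors 3 rose (18.8%), 4 fell (25.0%) and none was called. Of 36 core spliceosome genes 8 rose (22.2%) and 14 fell (38.9%), and 1 was called, Cdc5l, a component of the Prp19 complex, which went from 281 ± 8.46 to 87.5 ± 2.14 CPM (SD, n = 3; -1.68 ± 0.07, adjusted p = 5.39e-11). Of 38 other splicing regulators tested 20 rose (52.6%) and 4 fell (10.5%), and 7 were called higher and none lower, a share of 18.4% beside the 16.3% of all genes called higher. The largest was Esrp1, an epithelial splicing regulator, which went from 4.44 ± 1.25 to 149 ± 4.83 CPM (5.02 ± 0.15, adjusted p = 6.77e-12). Mbnl3 (1.76 ± 0.19, adjusted p = 1.43e-06), of the muscleblind family, and Srrm3 (1.66 ± 0.33, adjusted p = 0.000431), a relative of the neural microexon factor SRRM4, followed, with 13.4 ± 0.498 and 3.87 ± 1.00 CPM in EpiLC total RNA.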

How the data were processed

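Raw read counts per gene were deposited by the authors for 12 libraries (single-end, strand-specific, 50-base reads). Per the submitters' processing notes, reads were trimmed with cutadapt 1.14, aligned to mm10 with STAR 2.5.3a and counted with featureCounts 1.5.3. Per the study's methods and the file header, unique alignments were kept and the GENCODE M14 basic annotation was used without rRNA genes. Gene types, transcripts and exon sequences came from GENCODE M21 (51274 of 51467 gene IDs matched, 99.6%). The 92 spike-in entries held 0 reads. Genes reaching 3 CPM in 3 or more libraries were fitted with limma-voom, as in the study, with 1 mean per group over all 12 libraries (R 4.3.3, limma 3.58.1, edgeR 4.0.16 for TMM; DESeq2 1.42.0 and edgeR's quasi-likelihood test as alternatives). Adjusted p-values cover all genes tested. The fit was also run on simulated counts with equal means in all groups, except for genes changed in EpiLC total RNA. Those counts held no outlying library and no paired libraries, so the run does not cover these features of the data. Values after ± are the SE of the fit for log2 values. For levels, shares and the Ptbp2 over Ptbp1 ratio they are the SD of 3 libraries. Reads carried no molecular identifiers. Members and lists were chosen with earlier results of these data known. Named genes were, per comparison between cell types, up to 6 with the largest change in each direction, the 3 highest and 3 lowest in relative stability and in level, and up to 3 called genes per direction of each other list. Other members are given for their role. Python 3.11.15 was used.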

Additional observations from a re-analysis of the deposited data

Results flagged for a closer look

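The interaction of cell type and assay passed for 2 genes, whose mRNA changed differently from their nascent RNA. Ptbp2 had a stability change of 1.09 (adjusted p = 0.00565, limma-voom), with nascent and total RNA both higher in EpiLCs and total RNA more so. Hnrnpll had a stability change of -0.51 (adjusted p = 0.0347), with nascent RNA higher by 0.79 and total RNA by 0.27 on the log2 scale. No further gene of the 36 met a criterion for a closer look, and groups of 3 libraries were not tested for single outlying values.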

How the results depend on the processing

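No named change reversed its direction under any alternative run. Recomputed values for named genes stayed on their side of the adjusted p threshold 695 times and lost it 33 times, spread over Hnrnpa3 (total RNA), Hnrnpf, Hnrnph3, Hnrnpul2 and Tra2a (nascent RNA) and Hnrnpll (stability). Of 11 named results past the fold threshold too, 4 fell under it at some setting while keeping adjusted p, 20 times in all: ESC relative stability of Hnrnpll (7) and Srsf9 (6), and nascent change (4) and stability (3) of Ptbp2. The cause was not tested. Among counts over the 36 genes, library totals alone gave 20 rises in total RNA (13 in the chosen fit), 2 rises in stability (1) and 0 called higher in total over 4sU in ESCs (2). Without an expression filter there were 8 rises in total RNA, 1 fall in nascent RNA (4), no stability call (0 higher at the fold threshold and 0 falls) and 4 called higher in ESC relative stability. Sample quality weights gave 9 falls in total RNA (4) and 6 rises and 5 falls in stability (1 and 1). Leaving out both ESC replicate 3 libraries gave 9 falls in total RNA, 7 in nascent RNA, 0 nascent genes called higher (1), 6 rises and 6 falls in stability, and 0 called higher in ESC relative stability. Of the other tests, edgeR's quasi-likelihood test called 0 nascent genes higher, since Ptbp2 stood at 1.00 just under the threshold, and DESeq2 gave 4 falls in stability and 0 called higher in ESC relative stability. Scaling by median of ratios gave 2 falls in stability and 0 called higher in ESC relative stability, and TMM within each assay also gave 0 there. Library totals moved the median of all genes in relative stability from 0.03 to -0.20 in ESCs and from 0.15 to -0.02 in EpiLCs, so counts on its 2 sides depend on the scaling. With adjusted p alone, counts were 13 and 4 in both total and nascent RNA, 1 fall in stability, 10 higher and 19 lower in ESC relative stability and 9 and 16 in EpiLCs.

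Leaving out 1 library at a time gave 1 to 1 called higher and 0 to 0 called lower in total RNA, with 10 to 13 rises and 4 to 7 falls. In nascent RNA it gave 0 to 1 called higher, 9 to 14 rises and 1 to 5 falls. In stability it gave 0 to 1 called higher, 1 to 4 rises and 0 to 3 falls. In relative stability it gave 1 to 3 called higher and 6 to 10 called lower in ESCs, and 6 to 9 called lower in EpiLCs.

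With the replicate number as a block the counts were the same (13 rises and 4 falls in total and in nascent RNA, 1 and 1 in stability). Libraries with the same number deviated together between 4sU and total RNA of ESCs (r = 0.163 to 0.408). They hardly did so in EpiLCs (0.0235 to 0.0747) and did not across cell types (-0.0775 to 0.0533). The EpiLC range, from libraries split from the same samples per the study's methods, overlaps the range across cell types. The check therefore cannot decide whether libraries with the same number share more than that number across cell types. A block for each cell type and number, which pairs the libraries if the number marks the sample, gave 3 rises and 3 falls in stability.

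Depth limits the 4sU values most, and Srsf12 with 7 to 69 reads per library.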
